A study of Mus musculus with 56 samples.

Results

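The genes of the proteasome were followed through the day in the kidneys of mice fed only by day or only by night. Members were all genes of the deposited table whose mouse symbol is Psma, Psmb, Psmc, Psmd, Psme, Psmf or Psmg followed by a digit, leaving out pseudogenes and the immunoproteasome subunits Psmb8, Psmb9 and Psmb10. This gave 48 of the 17027 genes listed. The rule reads the symbol and no measured change, but it was set with earlier results of these data known. By role they were 8 alpha and 8 beta genes of the 20S core, 6 ATPases and 11 non-ATPase subunits of the 19S particle, 3 chaperones of 19S assembly, 4 chaperones of 20S assembly, 5 genes of activators and the inhibitor gene Psmf1. The last 2, Psmc3ip and Psme3ip1, share the letters of the symbol and are not proteasome subunits. Psma8, known from the testis, averaged 0.371 TPM, and Psmb11, known from the thymus, averaged 0.0184 TPM. TPM here means reads per base of exon length, mostly all annotated exons of a gene joined, scaled to the same total in every library. Psma8 and Psmb11 lay under the minimum mean of 1 TPM, so that 46 members were tested among 13336 genes.

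The proteasome degrades proteins that carry ubiquitin chains. Its barrel-shaped 20S core is built of outer rings of alpha subunits, which gate the entrance, and inner rings of beta subunits, among which Psmb5, Psmb6 and Psmb7 carry the cutting sites. The 19S particle caps the core, recognises ubiquitin, removes it and unfolds the protein with a ring of ATPases, while PA28 (Psme1, Psme2 and, in the nucleus, Psme3) and PA200 (Psme4) are other caps that open the gate without ATP, and Psmf1 encodes PI31, which inhibits the core in the test tube. Production of the subunits is known to be raised together by the transcription factor Nfe2l1 (Nrf1), which binds antioxidant-response-type elements.

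Whole kidneys were taken from female C57BL/6J mice aged 9 weeks that were housed in groups in 12 h of light and 12 h of dark. For the last 7 days food was offered in the light only (day-restricted feeding, DRF) or in the dark only (night-restricted feeding, NRF), and 4 mice of each regimen were sampled at ZT0, 4, 8, 12, 16, 20 and 24, where ZT is the time in hours after lights on. Poly(A) RNA was read from both ends over 100 bases, giving 56 libraries in 14 groups. NRF is the reference here and is itself a restricted schedule; mice with free access to food were not analysed here. The labels number the samples of a group without further detail, so that p-values measure the spread between these samples. ZT0 and ZT24 fall at the same clock time and were joined as ZT0/24 (8 mice per regimen) where the regimens were compared.

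Between 25.88 and 28.82 M reads (M, 1e6) per library were recovered from the deposited values, and the tested members held median counts from 18.9 reads (Psme2b) to 5136 reads (Psme4). Kidney identity was clear in every library: 5 markers of the proximal tubule summed to between 30345 and 135788 TPM, beside 25.9 to 370 TPM for 3 liver markers and 3.11 to 5.71 TPM for the 2 adrenal markers listed. Fat was uneven between libraries, since 3 adipose markers summed to between 0.199 and 571 TPM. Their group means ran from 0.704 TPM at DRF ZT8 to 163 TPM at NRF ZT12, and their part in the results was not tested. In whole tissue, fewer cells of a type and less RNA per cell cannot be told apart. Reads shared between genes were split in fractions by the authors' counting: of the Psme2 values 1.79% were whole reads and of those of its near copy Psme2b 0.0%, so the division of reads between this pair is uncertain. Psmf1 also had few whole values (5.36%).

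Promoter sequence was available in the RefSeq table of build GRCm38.p6 for 40 of the 48 members, as 44 windows, and 250 bases upstream of the start were searched on both strands. The letters TGACNNNGC, the antioxidant-response type bound by Nfe2l1 and Nfe2l2, occurred in 11.4% of the member windows (Psmb5, Psmb6, Psmc6, Psmd12 and Psmd9), beside 10.2% of all 32851 windows. In Psmb5 and Psmd9, which also held other letters of the search, the matches did not overlap. The E-box CACGTG, the type bound by the clock factors, occurred in 9.09% of the member windows (Psma4, Psmd9, Psme3 and Psme3ip1) and 6.02% of all. Heat-shock-type letters were found in 4.55% for GAANNTTC (Psmb5 and Psmf1) and 4.55% for TTCNNGAA (Psmd4 and Psme3), beside 6.69% and 7.17% of all windows. CCAAT, whose overlap with the other letters was not examined, stood in 34.1% of the member windows and 33.8% of all, and the D-box type TTANGTAA in 0.0% against 2.06%. A match is a description of letters and not a binding site. The 4 stretches below hold the antioxidant-response letters in capitals, written 5′ to 3′ on the strand of the gene; they are a core subunit of each of the chymotrypsin-like and caspase-like sites (Psmb5 at chr14:54618023-54618245 on the minus strand, Psmb6 at chr11:70525107-70525356 on the plus strand) and a non-ATPase and an ATPase of the 19S particle (Psmd12 at chr11:107479278-107479483 and Psmc6 at chr14:45329574-45329787, both on the plus strand). The stretches of Psmb5, Psmd12 and Psmc6 were shortened at the end nearest the gene, to 223, 206 and 214 bases, so as to end before the first transcript base annotated in GENCODE, while positions are counted from the RefSeq start.
Psmb5: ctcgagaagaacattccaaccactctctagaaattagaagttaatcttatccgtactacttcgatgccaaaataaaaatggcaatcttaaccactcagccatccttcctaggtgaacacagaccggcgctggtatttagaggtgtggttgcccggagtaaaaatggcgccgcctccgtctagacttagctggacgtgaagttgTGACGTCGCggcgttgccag
Psmb6: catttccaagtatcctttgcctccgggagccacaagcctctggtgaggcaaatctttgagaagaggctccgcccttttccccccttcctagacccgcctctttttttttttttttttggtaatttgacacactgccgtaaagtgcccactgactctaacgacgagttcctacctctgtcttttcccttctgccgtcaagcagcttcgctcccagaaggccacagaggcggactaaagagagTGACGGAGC
Psmd12: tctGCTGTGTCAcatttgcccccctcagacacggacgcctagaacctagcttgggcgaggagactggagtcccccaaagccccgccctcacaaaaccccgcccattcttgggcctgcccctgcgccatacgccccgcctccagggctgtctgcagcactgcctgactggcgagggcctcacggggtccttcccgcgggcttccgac
Psmc6: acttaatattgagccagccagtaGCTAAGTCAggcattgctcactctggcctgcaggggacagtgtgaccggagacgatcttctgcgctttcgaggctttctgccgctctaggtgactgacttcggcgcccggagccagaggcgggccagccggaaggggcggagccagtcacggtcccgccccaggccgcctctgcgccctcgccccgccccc
The capitals lie 47 to 39 bases before the start in Psmb5 and 9 to 1 bases before it in Psmb6, and read in the opposite direction 247 to 239 bases before it in Psmd12 and 227 to 219 bases before it in Psmc6.

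Core and 19S subunits were expressed at similar levels. Mean TPM over the 56 libraries ran from 70.0 (Psma2) to 225 (Psmb5) for the 14 core genes tested and from 44.7 (Psmd11) to 193 (Psmc5) for the 17 genes of the 19S particle. The auxiliary genes were lower in part: Psmf1 averaged 16.4 TPM, the 19S chaperone Psmd9 13 TPM and Psme2b 2.85 TPM. Such levels depend on the exon length used, which was 7248 bases for Psmd9 and 6441 for Psmf1. The 20S chaperone Psmg1, at 1344 bases, averaged 48.8 TPM, although its median count was lower than that of Psmd9 (603 against 852.5 reads). The map of group means shows the daily pattern of every tested member.

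**Figure D1:**
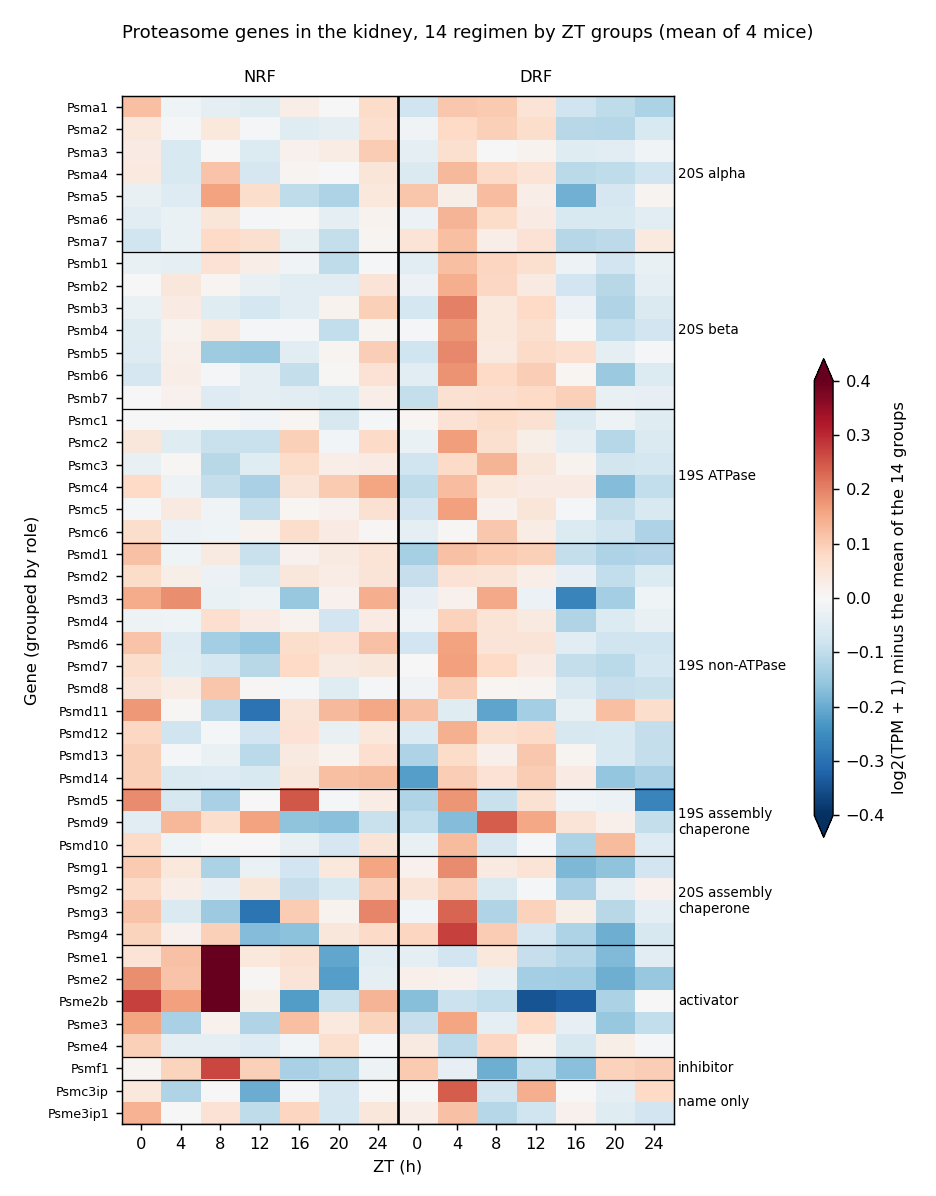
Group means of the 46 tested genes (rows, ordered by role) in the 14 groups (columns, ZT in h, NRF left and DRF right), as log2(TPM + 1) minus the mean of the gene's 14 group means, each group being 4 mice. Under DRF 31 of the 46 genes are highest at ZT4 among 6 clock times, with ZT0 and ZT24 joined, while Psmd11 and Psmf1 differ from their neighbours. The share of all genes tested that are highest at ZT4 was not determined.

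The first question was which genes followed a daily rhythm under each regimen, fitted as a 24-h cosine over the 28 libraries of the regimen on log2(TPM + 1) with limma and Benjamini-Hochberg adjustment over all genes tested. Under NRF 19 of the 46 members (41.3%) had a rhythm, beside 52.5% of all genes tested. Under DRF 33 members (71.7%) had one, beside 34% of all genes. The median fitted amplitude of the members, rhythmic or not, on the log2 scale was 0.06 with NRF and 0.10 with DRF, while over all genes it was 0.13 and 0.11. Of the members, 14 were rhythmic under both regimens (23.6% of all genes were), 19 under DRF and not NRF (10.4% of all genes), 5 under NRF and not DRF (28.9% of all genes) and 8 under neither. A call under one regimen alone is no test of the difference; that test, an interaction of regimen and cosine, passed for 29 members (63.0%), beside 44.8% of all genes.

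**Figure D2:**
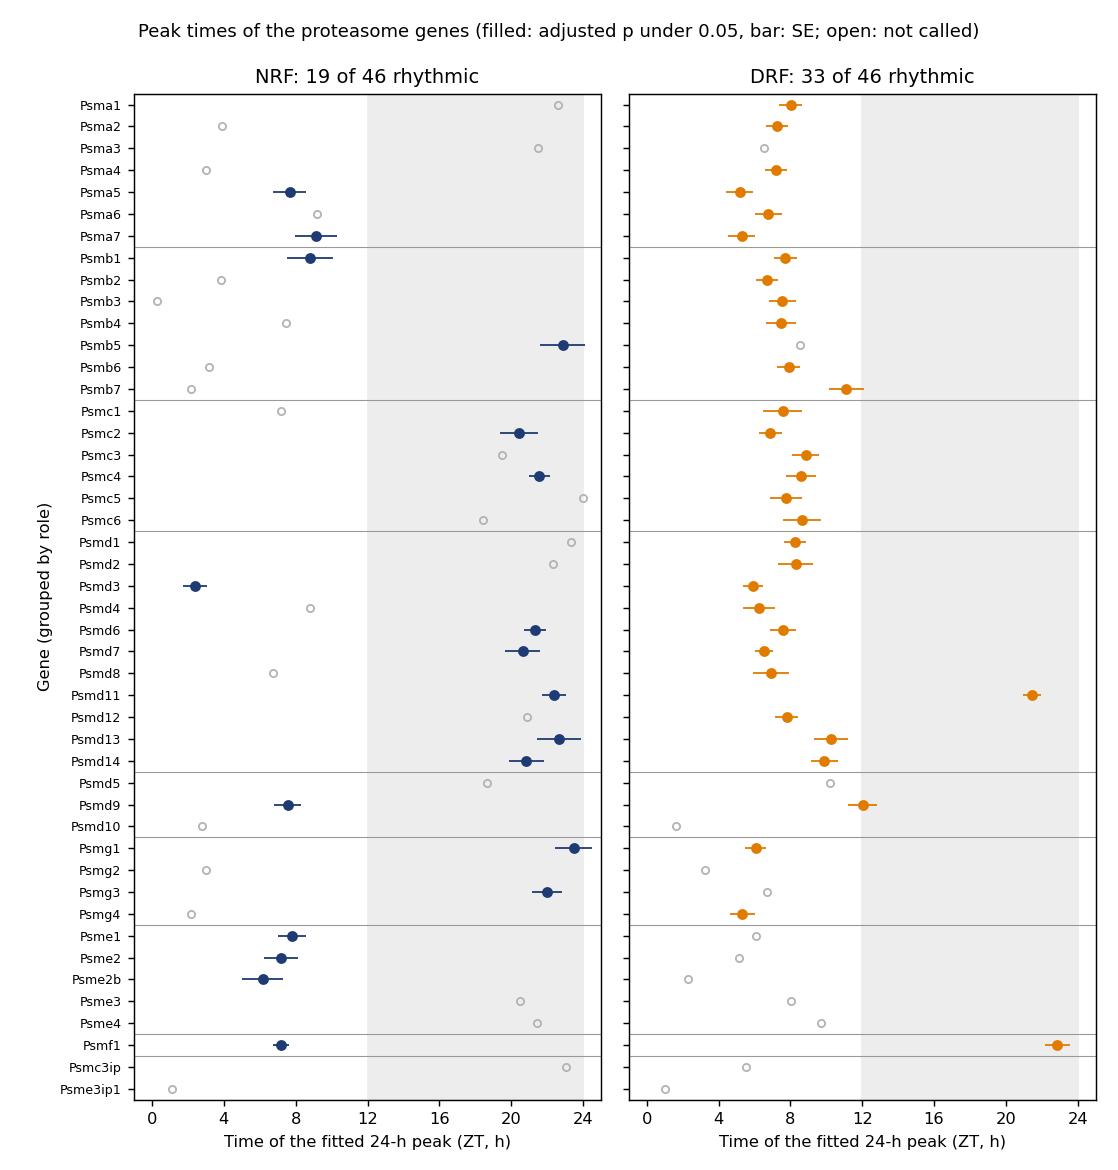
Fitted 24-h peak time (x axis, ZT in h, dark phase shaded) of each tested gene (y axis, grouped by role) under NRF and DRF, with filled points and SE bars for adjusted p under 0.05 and open points for the rest. Under DRF 29 of the 33 rhythmic genes peak between ZT5 and ZT11, whereas under NRF 10 of 19 peak between ZT18 and ZT24 and 8 between ZT5 and ZT11. The share of all rhythmic genes of the kidney in these windows was not determined.

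In the 20S core most genes were rhythmic under DRF. Of 14 core genes, 12 were rhythmic under DRF, and 11 of these peaked between ZT5 and ZT11, during the light phase in which DRF mice were fed. Their amplitudes were small, with a fitted fold between peak and trough of 1.11 to 1.20 (median 1.18). The share of all rhythmic genes that peaked between ZT5 and ZT11 was not determined, nor was that of all genes highest at ZT4. This timing is thus not shown to be particular to the core. Under NRF 4 of the 14 core genes were rhythmic, beside 52.5% of all genes tested. The alpha subunits Psma5 and Psma7 and the beta subunit Psmb1 peaked at ZT7.66, ZT9.13 and ZT8.79, and Psmb5, the chymotrypsin-like subunit, at ZT22.9. Regimen changed the rhythm of 10 of the 14 core genes, beside 44.8% of all genes.

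Psma4, an alpha subunit, had 197, 199, 217 and 223 TPM in the DRF mice at ZT4 and 170, 178, 178 and 181 TPM at ZT16, 2 groups that did not overlap. Under DRF its peak lay at ZT7.19 (SE 0.60 h, adjusted p = 0.00035 with limma), whereas under NRF no rhythm passed (amplitude 0.02, adjusted p = 0.826). The difference in rhythm had an adjusted p of 0.013. Psmb6, the caspase-like catalytic subunit, had 164, 165, 177 and 178 TPM in DRF mice at ZT4 and 130, 137, 137 and 138 TPM at ZT20, again without overlap. Its fitted DRF peak lay at ZT7.90 (SE 0.64 h, amplitude 0.13, adjusted p = 0.000429, limma), although its highest DRF group was ZT4. At ZT8 and ZT12 the DRF mice had 151 to 167 and 152 to 169 TPM. A 12-h component was also called under DRF (adjusted p = 0.0181, limma). Under NRF all 28 libraries of Psmb6 lay between 135 and 170 TPM, and no rhythm passed (adjusted p = 0.256). Psmb7, the trypsin-like subunit, peaked later under DRF, at ZT11.1 (SE 0.96 h), and Psmb5 had no rhythm there (adjusted p = 0.176). The rhythms of all 3 catalytic genes differed between the regimens (adjusted p = 0.00634 for Psmb5, 0.00382 for Psmb6 and 0.0003 for Psmb7).

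In the 19S particle every subunit tested, 17 of 17, was rhythmic under DRF, beside 34% of all genes. The fitted peaks of 16 lay between ZT5 and ZT11, while 10 of the 17 had their highest mean at ZT4. Under NRF 8 of the 17 were rhythmic, beside 52.5% of all genes. Of these, 7 peaked between ZT18 and ZT24, late in the dark phase in which NRF mice were fed, and 1, Psmd3, peaked at ZT2.37. For these windows too the share of all rhythmic genes was not determined, nor was that of all genes highest at ZT4. Regimen changed the rhythm of 13 of the 17, beside 44.8% of all genes. A shift of at least 8 h between regimens, called phase-inverted, was found for 7 members rhythmic under both (7.58% of all genes tested), namely the 19S genes Psmc2, Psmc4, Psmd6, Psmd7, Psmd13 and Psmd14, and Psmf1. A shift of at most 4 h, called phase-locked, was found for 5 members (8.23% of all genes): Psma5, Psma7, Psmb1, Psmd3 and Psmd11.

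Psmc4, an ATPase of the 19S ring, was among the phase-inverted genes. NRF mice had 118, 124, 125 and 132 TPM at ZT20, while DRF mice had 97.7, 102, 104 and 107 TPM, so that every NRF mouse lay above every DRF mouse (log2 difference -0.28, SE 0.05, adjusted p = 5.56e-05, limma). At ZT4 the order was the reverse, with 123, 126, 127 and 129 TPM under DRF against 108, 111, 118 and 119 TPM under NRF (0.14, SE 0.05, adjusted p = 0.022). Its fitted peak lay at ZT21.6 (SE 0.58 h) under NRF and ZT8.60 (SE 0.82 h) under DRF. At ZT16 the regimens overlapped, with 113 to 123 TPM under DRF and 113 to 125 TPM under NRF. Under DRF a 12-h component was also called (adjusted p = 0.00657, limma), so the single cosine does not give the whole course of Psmc4. Psmd14, the enzyme that removes ubiquitin chains from the bound protein, peaked at ZT20.9 (SE 0.96 h) under NRF and ZT9.87 (SE 0.75 h) under DRF. The 8 DRF mice at ZT0/24 ran from 39.2 to 49.5 TPM (median 42.7) and the 8 NRF mice from 46.7 to 57.1 TPM (median 54.0), with some overlap (-0.29, SE 0.05, adjusted p = 1.05e-05).

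Psmd6, a scaffold subunit of the 19S lid, had 57.1, 58.2, 58.5 and 59.4 TPM in NRF mice at ZT12 and 64.6, 66.2, 69.2 and 70.1 TPM in DRF mice at that time. All DRF mice were higher than all NRF mice (0.21, SE 0.05, adjusted p = 0.00171, limma). Its peak lay at ZT21.3 (SE 0.62 h) under NRF and ZT7.61 (SE 0.73 h) under DRF, and the rhythms differed with an adjusted p of 4.04e-08. Psmd7, another lid subunit, and Psmc2, another ATPase, moved from ZT20.7 and ZT20.4 under NRF to ZT6.53 and ZT6.87 under DRF. Psmd4, a ubiquitin receptor, was rhythmic under DRF with a peak at ZT6.24 (adjusted p = 0.0147), but its rhythm did not pass under NRF (adjusted p = 0.228) and the difference between regimens did not pass either (adjusted p = 0.223).

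**Figure D3:**
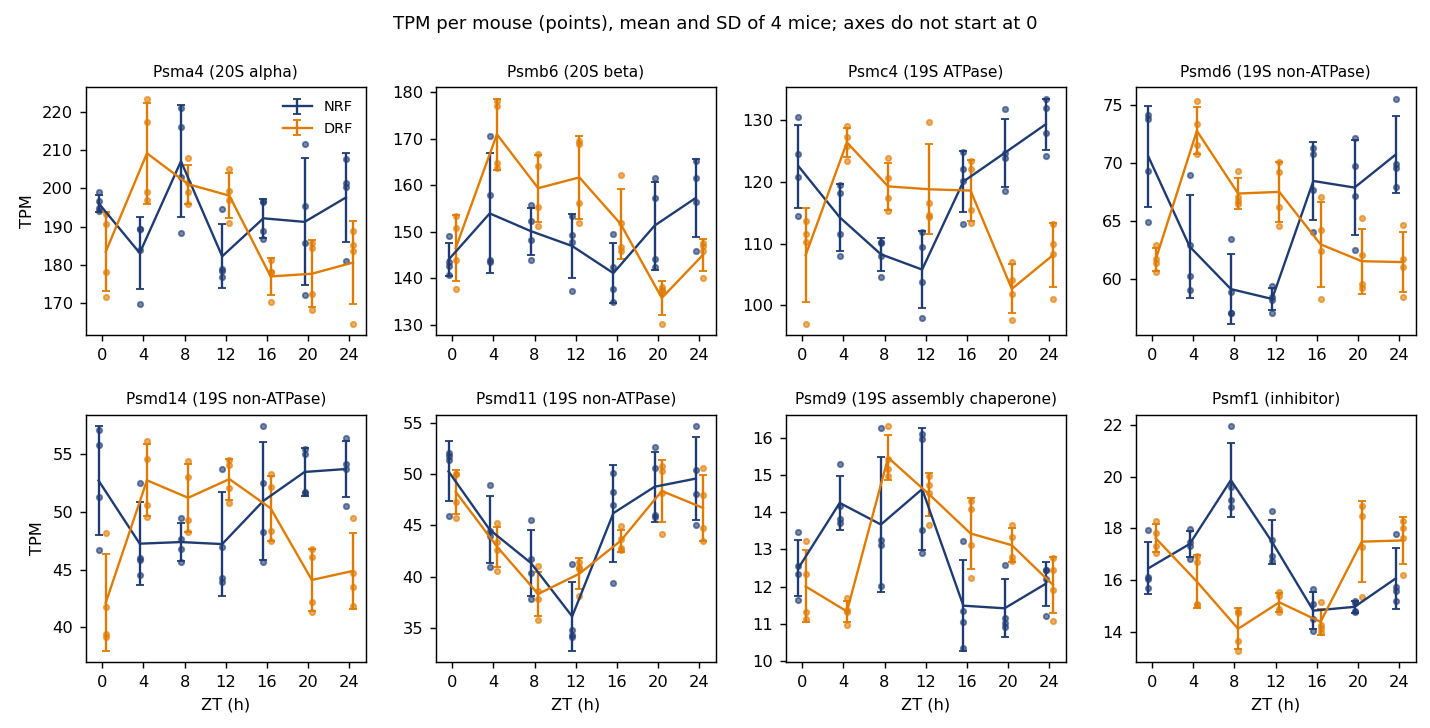
TPM of 8 proteasome genes (y axes, not starting at 0) against ZT in h (x axes), with 1 point per mouse and lines through the mean of 4 mice with SD bars, for NRF and DRF. Fitted 24-h peaks of Psmc4, Psmd6 and Psmd14 lie at least 8 h apart between the 2 regimens, and those of Psmd11 within 4 h. At ZT16 the Psmc4 values of the 2 regimens overlap. The fitted peak of Psmf1 lies at ZT7.18 under NRF and ZT22.9 under DRF.

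Psmd11, a lid subunit, did not follow the other 19S genes under DRF. It had 35.8, 37.8, 38.6 and 41.0 TPM in DRF mice at ZT8, and 44.2, 48.1, 50.3 and 50.8 TPM at ZT20. The NRF mice were also low around the start of the dark phase, with 34.1, 34.3, 34.8 and 41.2 TPM at ZT12, and high at ZT20, with 45.8, 46, 50.6 and 52.7 TPM. It therefore kept a late-night peak in both regimens, at ZT22.4 (SE 0.66 h, amplitude 0.20) under NRF and ZT21.5 (SE 0.50 h, amplitude 0.16) under DRF. Its rhythms did not differ by the interaction test (adjusted p = 0.413, shift -0.92 h with SE 0.82 h). Psmd3, a further lid subunit, peaked by day under both regimens, at ZT2.37 (SE 0.67 h) and ZT5.92 (SE 0.57 h), and its rhythms did differ (adjusted p = 0.00315).

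The chaperones that help assemble the particle did not share a single pattern. Of the 3 chaperones of 19S assembly, Psmd9 was rhythmic under both regimens, with peaks at ZT7.56 (SE 0.75 h) under NRF and ZT12.0 (SE 0.82 h) under DRF, whereas Psmd5 and Psmd10 were rhythmic under neither. At ZT4 Psmd9 had 13.7, 13.8, 14.2 and 15.3 TPM in NRF mice and 11, 11.3, 11.4 and 11.7 TPM in DRF mice. It was thus lower in every DRF mouse (-0.31, SE 0.07, adjusted p = 0.000956, limma), at the time when the core and 19S genes called were with 1 exception higher. Of the 4 chaperones of 20S assembly, Psmg1 peaked at ZT23.5 under NRF and ZT6.07 under DRF, Psmg3 was rhythmic under NRF (peak ZT22) and Psmg4 under DRF (peak ZT5.32). The rhythm of Psmg2 did not pass under either regimen (adjusted p = 0.158 and 0.0611).

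Psmf1, the inhibitor, peaked by day under NRF and by night under DRF. NRF mice had 18.8, 19.1, 19.6 and 22 TPM at ZT8, and DRF mice 13.3, 13.7, 14.8 and 14.8 TPM. No mouse of one group reached the other (-0.46, SE 0.06, adjusted p = 3.88e-08, limma). At ZT20 the order was turned, with 15.4, 17.3, 18.5 and 18.9 TPM under DRF and 14.8, 14.8, 15.1 and 15.2 TPM under NRF (0.21, SE 0.06, adjusted p = 0.00667). Its peak lay at ZT7.18 (SE 0.47 h) under NRF and ZT22.9 (SE 0.71 h) under DRF, with amplitudes of 0.18 and 0.15. The interaction test gave an adjusted p of 5.96e-09.

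The second question was how DRF and NRF mice differed at the same clock time. At ZT4, 16 members were higher and 2 lower under DRF (39.1% called, beside 27.8% of all genes, of which 9.38% higher and 18.4% lower). The median log2 difference of the 46 members was 0.13, while that of all genes was -0.06, and 38 members lay above 0. Higher genes were 8 of the 14 core genes, 6 of the 17 genes of the 19S particle, Psmg3 and Psme3. The 2 lower were Psmd9 and Psmd3. Among the higher, Psmd12, a lid subunit, had 87.6, 88.9, 90.1 and 91.4 TPM under DRF against 75.1, 75.7, 76.8 and 79.0 TPM under NRF, with no overlap (0.22, SE 0.04, adjusted p = 8.72e-05, limma). The summed level of the 14 core genes was 1902 ± 61.3 TPM (SD, n = 4) under DRF at ZT4, the highest of the 14 groups, against 1723 ± 65 TPM under NRF. The summed proximal tubule markers were lowest in the same group, at 46262 ± 3919 TPM (41178 to 50616), with 33133 to 80713 TPM in the NRF mice at ZT4 and group means of 58746 to 92286 TPM in the other 13 groups, and their part in the result was not tested. The count at ZT4 moved from 9 calls with 1 replicate number left out to 33 (32 higher, 1 lower) with median-of-ratios scaling and 32 (all higher) with scaling by the authors' effective library size.

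**Figure D4:**
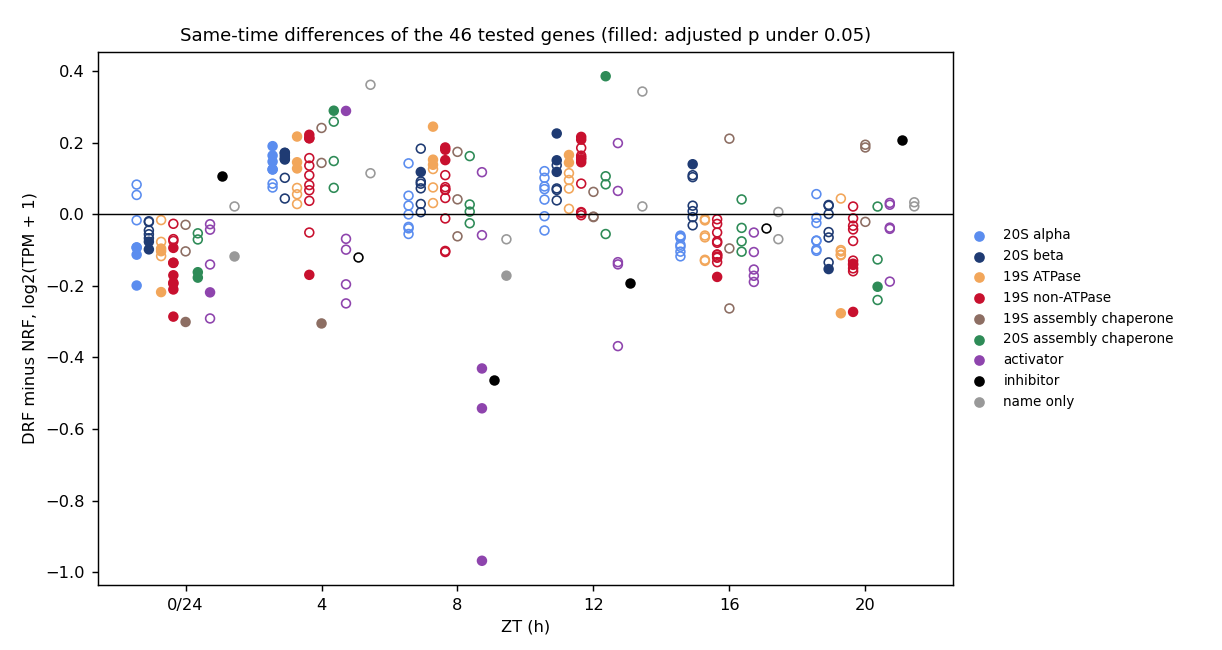
Difference DRF minus NRF on the log2(TPM + 1) scale (y axis) of each of the 46 tested genes at 6 clock times (x axis, ZT in h, 0/24 joining both ends of the day), coloured by role, filled where the adjusted p was under 0.05. At ZT4 38 of the 46 genes lie above 0, and at ZT8 Psme2b, Psme2 and Psme1 are among the lowest points.

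At ZT0/24 the direction was the reverse: 22 members were lower and 1, Psmf1, was higher under DRF (50% called, beside 33.5% of all genes, of which 23.1% lower and 10.3% higher). Lower genes were 6 of the 14 core genes and 11 of the 17 genes of the 19S particle, with Psmg1, Psmg3, Psmd5, Psme3 and Psme3ip1. The median over the members was -0.09, not far from -0.06 over all genes. The calls depended on the scaling, since 10 members were called under each of median-of-ratios scaling and the authors' effective library size (2 higher, 8 lower in each). Psmc4 kept its call under every alternative: its 8 DRF mice ran from 97.0 to 113.7 TPM (median 110) and its 8 NRF mice from 114.4 to 133 TPM (median 126), without overlap (-0.22, SE 0.03, adjusted p = 2.69e-06, limma). Psmd5, Psmd14, Psma1, Psmd1, Psmd13, Psmd6 and Psme3 also kept theirs.

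At the other 4 times fewer members differed. At ZT8, 7 were higher and 5 lower (26.1%, beside 15.6% of all genes, 5.56% higher and 10% lower). The 7 higher were Psmb7, the ATPases Psmc2, Psmc3 and Psmc4 and the non-ATPase subunits Psmd3, Psmd6 and Psmd7, and the 5 lower were Psme1, Psme2, Psme2b, Psmf1 and Psme3ip1. With median-of-ratios scaling the split was 12 higher and 4 lower, and 3 to 8 members were called with 1 replicate number left out. Psmc3 had 154, 173, 174 and 174 TPM under DRF at ZT8 against 136, 139, 143 and 151 TPM under NRF, without overlap (0.24, SE 0.05, adjusted p = 0.000793, limma). At ZT12, 10 were higher and 1 (Psmf1) lower (23.9%, beside 18.7% of all genes, 7.1% higher and 11.6% lower), the largest difference being that of Psmg3 (0.39, SE 0.08, adjusted p = 0.000651); without replicate number 3 the count was 1. At ZT16, Psmb7 was higher and Psmd7 lower (4.35%, beside 6.3% of all genes, 2.1% higher and 4.2% lower), a share under the background. At ZT20, 6 were lower and 1 (Psmf1) higher (15.2%, beside 16.7% of all genes, 6.43% lower and 10.3% higher), and the median log2 difference was -0.06 over the members and 0.05 over all genes. The count at ZT20 rose to 13 (12 lower, 1 higher) with median-of-ratios scaling and was 3 to 6 with 1 replicate number left out.

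The third question was whether DRF mice resembled NRF mice at the matching time after the start of feeding, 12 h later on the clock. At DRF ZT4 against NRF ZT16, 11 members were higher and 0 lower (23.9% called, beside 15.7% of all genes, of which 10.6% higher and 5.04% lower). They were the beta subunits Psmb1, Psmb2, Psmb3, Psmb4, Psmb5 and Psmb6, with Psmc5, Psmd3, Psmg1, Psmg2 and Psmg4. Psmb6 had 164 to 178 TPM in the DRF mice and 135, 138, 142 and 149 TPM in the NRF mice, so the groups were apart (0.27, SE 0.05, adjusted p = 0.000158, limma). With 1 replicate number left out 2 to 10 members were called. At DRF ZT20 against NRF ZT8, 10 were lower and 1, Psmd11, higher (23.9%, beside 12.1% of all genes, 7.52% lower and 4.53% higher), the lower genes including Psma2, Psma4, Psma5, Psma7 and Psmb1 and the activators Psme1, Psme2 and Psme2b (4 to 8 calls with 1 replicate number left out).

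In the other 4 matched comparisons the shares called lay near or under the background. At DRF ZT8 against NRF ZT20, 6 were called (13%, beside 13.4% of all genes, 7.15% higher and 6.23% lower), of which Psmd11 was lower (-0.34, SE 0.07, adjusted p = 0.000361, limma) and Psmd9 higher (0.41, SE 0.07, adjusted p = 4.19e-05). At DRF ZT12 against NRF ZT0/24, 4 were called (8.70%, beside 18% of all genes, 3.91% higher and 14.1% lower), 1 higher and 3 lower, a split that turned to 3 and 1 with median-of-ratios scaling. At DRF ZT16 against NRF ZT4, 5 were called, all lower (10.9%, beside 32.4% of all genes, 26.4% lower and 6.02% higher), and the split was 6 higher and 2 lower with that scaling, which moved the median of all genes from -0.10 to 0.00. Psmd3 kept its call there under every alternative, with 84.5, 86.6, 89.9 and 92.1 TPM under DRF at ZT16 below 110, 119, 121 and 135 TPM under NRF at ZT4 (-0.45, SE 0.06, adjusted p = 8.11e-08). At DRF ZT0/24 against NRF ZT12, 3 were called (6.52%, beside 9.96% of all genes, 4.54% higher and 5.41% lower): Psmd11 and Psmg3 higher and Psmd9 lower. Psmd11, which was phase-locked, was thus called in 4 of the 6 matched comparisons and in 0 of the 6 comparisons at the same time (1 at an unadjusted p under 0.05, and 1 by limma-voom).

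Averaged over the day, the regimens differed little. The daily mean, called mesor here, was the mean of the group means over the 6 clock times and was not taken from the cosine. It differed for 7 members (15.2%, beside 11.7% of all genes, 2.55% higher and 9.13% lower): Psmb5 (0.10, SE 0.03) and Psmb7 (0.06, SE 0.02) were higher under DRF, and Psme1, Psme2, Psme2b, Psmf1 and Psmd3 were lower. With median-of-ratios scaling the split was 6 higher and 1 lower, and with ZT8 left out in both regimens 2 members were called. The median mesor difference of the members was 0.00, and over all genes it was -0.03. Within a regimen, ZT16 against ZT4 gave 23 lower and 1 higher members under DRF (52.2% called, beside 23.4% of all genes, 16.9% lower and 6.54% higher; 11 to 22 calls with 1 replicate number left out, 5 with the deposited values divided by the gene mean, and 3 of the 24 called under every alternative), and 6 higher and 3 lower under NRF (19.6%, beside 31.4% of all genes, 9.76% higher and 21.6% lower; 10 higher and 3 lower with median-of-ratios scaling, and mostly lower without replicate number 2, 3 or 4, with 3, 3 and 4 calls). Between ZT24 and ZT0, which repeat the clock time, limma called 0 members under NRF (0.697% of all genes called) and 0 under DRF (0% of all genes). At an unadjusted p under 0.05 it gave 2 and 0 members, and limma-voom gave 0 and 0 adjusted, 4 and 0 unadjusted.

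A second, 12-h component on top of the cosine was called for 11 members under DRF (23.9%, beside 25% of all genes) and for 0 under NRF (0.547% of all genes), where 2 members had an unadjusted p under 0.05 (limma-voom: 0 adjusted and 3 unadjusted). The share under DRF was near the background. Of the 11, 8 had the first 12-h maximum of the day between ZT2.88 and ZT3.76, among them Psmb6, Psmc4 and Psmc5. Psma5, Psmd3 and Psmd9 had theirs between ZT9.02 and ZT10.2. Each such maximum recurs 12 h later. These calls were few when 1 replicate number was left out (1 to 5 members) and with ZT8 left out (2 members).

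The ratio of the 17 summed 19S genes to the 14 summed core genes had group means from 0.901 ± 0.0155 (SD, n = 4) at ZT8 to 0.976 ± 0.0234 at ZT0 under NRF. Under DRF the group means lay between 0.906 and 0.93. The 4 NRF mice at ZT8 (0.883 to 0.918) lay below the 4 at ZT0 (0.949 to 1.0). At ZT24, which repeats the clock time of ZT0, the NRF ratio was 0.936 ± 0.0418 (0.900 to 0.996), and these mice overlapped those at ZT8. Under DRF the core and 19S sums peaked together at ZT4, the 19S sum at 1721 ± 40.4 TPM. These ratios are descriptions with no test.

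Among the activators, Psme1, Psme2 and Psme2b were lower under DRF at ZT8. Psme1 and Psme2, which form the PA28 cap found with the immunoproteasome, had a rhythm under NRF (peaks ZT7.77 and ZT7.16) and did not pass under DRF (adjusted p = 0.175 and 0.0970). The difference in rhythm between the regimens passed for Psme1 (adjusted p = 0.0435, and 0.125 without NRF ZT8 replicate 3) but not for Psme2 (0.151) or Psme2b (0.138), all by limma. At ZT8 Psme1 had 100, 108, 125 and 150 TPM in NRF mice and 86.2, 87.6, 89.2 and 89.9 TPM in DRF mice. The NRF mice were all higher and far more spread (-0.43, SE 0.10, adjusted p = 0.00201, limma). Psme2 had 91.6, 125, 128 and 170 TPM under NRF against 84.1, 85.0, 86.9 and 87.6 TPM under DRF, also without overlap (-0.54, SE 0.12, adjusted p = 0.0012). Psme2b, whose reads cannot be kept apart from those of Psme2, had 2.58, 4.21, 7.85 and 11 TPM under NRF and 1.68, 2.26, 2.52 and 3.41 TPM under DRF, with overlap (-0.97, SE 0.25, adjusted p = 0.00623).

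The immunoproteasome subunits, which replace the catalytic beta subunits after interferon and were left out of the members, were also lower under DRF at ZT8. Unlike these activators, all 3 had a 24-h rhythm under DRF (34% of all genes had one). At ZT4 and at ZT12, 2 of the 3 were also lower under DRF (18.4% and 11.6% of all genes). At ZT8 Psmb8 was lower under DRF by -1.18 (SE 0.24, adjusted p = 0.000523, limma), Psmb9 by -1.64 (SE 0.26, adjusted p = 1.12e-05) and Psmb10 by -1.17 (SE 0.22, adjusted p = 0.000141). Psmb9 had 7.27, 15.5, 20.8 and 34.8 TPM in NRF mice and 3.69, 4.48, 5.02 and 6.33 TPM in DRF mice. The 4 interferon-response genes Ifit1, Isg15, Irf7 and Ifi27l2a summed to 128, 246, 283 and 331 TPM in the NRF mice and 63.5 to 77.6 TPM in the DRF mice, and their part in the result was not tested. The NRF mouse with the highest sum, replicate 3, was also highest for Psme1, Psme2, Psme2b, Psmb8, Psmb9 and Psmb10. The sum did not follow the clock time alone, since it ran from 238 to 347 TPM in NRF mice at ZT0 and from 76.9 to 121 TPM at ZT24. The means that follow are descriptions, and a link between these genes was not tested. In NRF mice the interferon-response sum averaged 293 TPM at ZT0 and 247 TPM at ZT8. Psme1 and Psme2 together averaged 190 TPM at ZT0 (SD 16.9, n = 4) and 249 TPM at ZT8 (SD 53.0, n = 4). At ZT0/24, 0 of the 3 immunoproteasome genes were called (median log2 difference -0.005, limma), beside 33.5% of all genes. That comparison joins ZT0 and ZT24, so it cannot show whether these genes followed the sum at ZT0. The immune-cell markers Ptprc, Cd68, Cd3e and Lyz2 together gave 41.5 to 90.2 TPM under NRF at ZT8 and 51.1 to 72.5 TPM under DRF, 2 groups that overlapped.

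Without NRF ZT8 replicate 3 the difference at ZT8 was -0.32 (adjusted p = 0.0269, limma) for Psme1, -0.40 (adjusted p = 0.0189) for Psme2 and -0.69 (adjusted p = 0.0638) for Psme2b. With ZT8 left out in both regimens the NRF rhythm of these genes did not pass (adjusted p = 0.125, 0.270 and 0.214), nor did their mesor differences (adjusted p = 0.104, 0.135 and 0.157). Psme3, the nuclear PA28 subunit, was higher under DRF at ZT4, where it had 123, 134, 135 and 158 TPM under DRF and 93.8, 113, 116 and 127 TPM under NRF, with overlap (0.29, SE 0.08, adjusted p = 0.00381). Its rhythm differed between regimens (adjusted p = 0.0036), although it passed under neither alone (0.0719 and 0.0529). Psme4, the PA200 cap, was called by limma in 0 of 22 comparisons (0 at an unadjusted p under 0.05, and 0 by limma-voom) and had group means between 62.4 and 71.9 TPM.

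**Figure D5:**
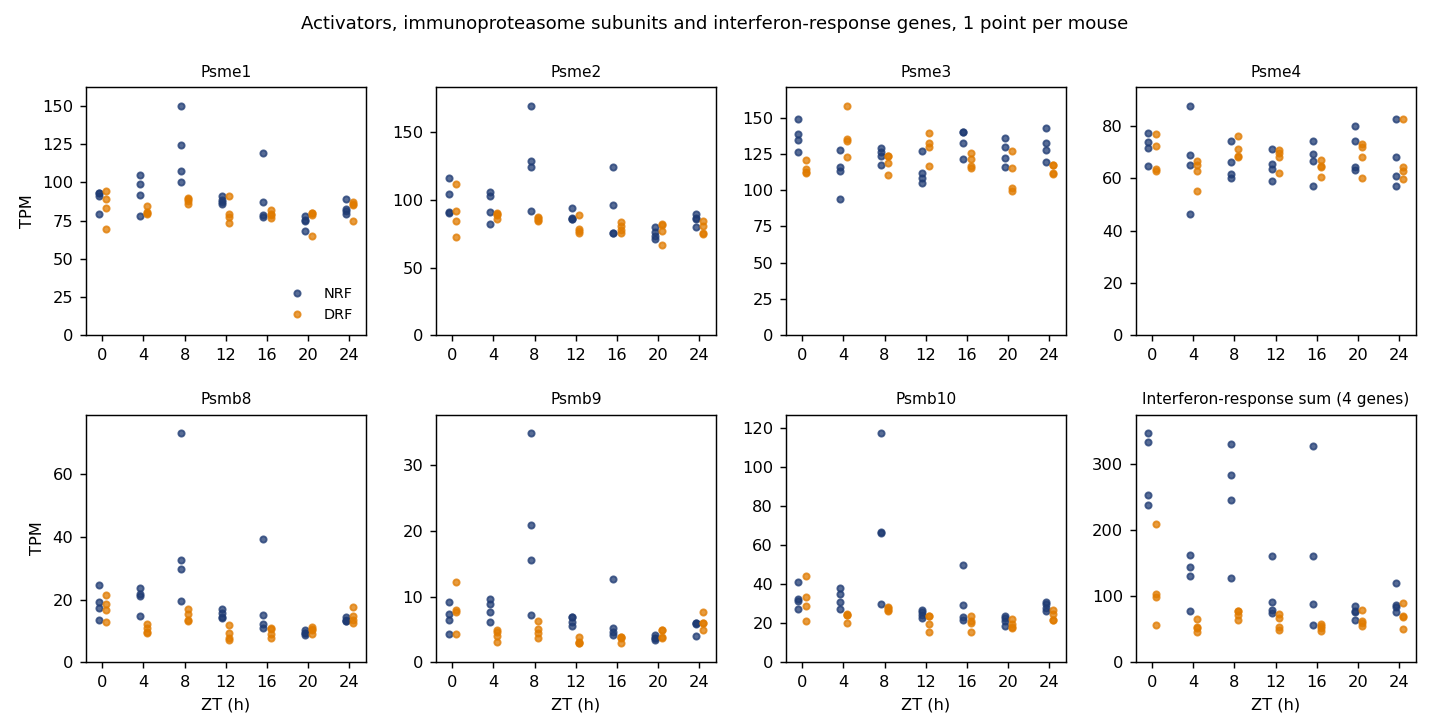
TPM of Psme1 to Psme4, of the immunoproteasome subunits Psmb8, Psmb9 and Psmb10 and of the sum of 4 interferon-response genes (y axes from 0) against ZT in h (x axes), with 1 point per mouse for NRF and DRF. At ZT8 the NRF mice of Psme1 and Psme2 lie above all DRF mice, and the interferon-response sum is high in NRF mice at ZT0 and ZT8.

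Psmc3ip, a meiotic recombination factor, was called by limma in 0 of 22 comparisons (3 at an unadjusted p under 0.05, and 1 by limma-voom). Psme3ip1, a partner of Psme3, was lower under DRF at ZT8 (-0.17, SE 0.06, adjusted p = 0.0323, limma) and ZT0/24 (-0.12, SE 0.04, adjusted p = 0.0195), and had no 24-h rhythm under either regimen.

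Other parts of the ubiquitin system were read from lists of named genes. Of 9 tested further subunits and assembly or recycling factors of the proteasome, 4 were rhythmic under NRF and 1 under DRF, beside 52.5% and 34% of all genes. At ZT4, 3 of the 9 were higher under DRF and 0 lower, beside 9.38% and 18.4% of all genes. The 1 rhythmic under both was Adrm1, a ubiquitin receptor of the 19S particle with another type of symbol, which peaked at ZT18.2 under NRF and ZT6.70 under DRF and was higher under DRF at ZT4 (0.38, SE 0.06, adjusted p = 1.42e-06, limma). Sem1, a small 19S subunit, was also higher at ZT4 (0.24, adjusted p = 0.00793), as was Txnl1, a redox protein bound to the particle (0.25, adjusted p = 0.00347). Of the 15 regulators and shuttle factors, 5 were rhythmic under NRF and 5 under DRF, and the rhythm of 8 differed, beside 52.5%, 34% and 44.8% of all genes. Vcp, the unfolding ATPase, peaked at ZT9.32 under DRF, whereas the stress regulator Nfe2l2 peaked at ZT21.6 and Zfand5, which stimulates the proteasome, at ZT20.4. Nfe2l1 was called in neither rhythm test. Of the 5 ubiquitin genes, 1 was rhythmic under NRF and 1 under DRF, beside 52.5% and 34% of all genes. At ZT4, 1 of the 5 was higher under DRF and 1 lower, beside 9.38% and 18.4% of all genes. Ubb, a gene for ubiquitin itself, was the 1 rhythmic under DRF (peak ZT19.4) and the 1 lower under DRF at ZT4 (-0.38, SE 0.05, adjusted p = 4.29e-07, limma).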

How the data were processed

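The authors sequenced poly(A) RNA of 56 mouse kidneys and deposited 1 table of gene values, 1 column per library, which they name TPM. The submitters' processing notes name HISAT2, Bowtie2, RSEM and the builds mm10 and GRCm38.p6, without their roles or versions. The deposited values (treated here as a score) sum to between 999145 and 999753 per library and proved to be log2(CPM + 1) divided by gene length and rescaled per library, so they scale with log2(CPM + 1) within a gene and are not TPM. Reads were recovered for 98.34% of the genes, 15382 with the exon length of GENCODE release M21 and 1363, among them Psmg2 and Psma8, with another length. That length was searched so that the values came out as whole reads or hundredths. A gene passed with at least 95% of its values, so the next shares are partly fixed by this rule and do not test it. Under 5000 reads, 99.99% of the values were hundredths of a read (tolerance 0.0005 to 0.0035 reads) and 89.42% whole reads, as estimated counts with shared reads are. A further 230 genes with a median over 5000 reads could not be tested and kept the annotated length. TPM was rebuilt from these reads.

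Genes with a mean of at least 1 TPM (13336) were fitted with limma-trend (limma 3.58.1, R 4.3.3) on log2(TPM + 1), with p-values adjusted by Benjamini-Hochberg over all of them and a threshold of 0.05; differences on this scale understate the change of low genes. Group means were compared at the same ZT and at DRF times 12 h before the NRF time. Rhythms were 24-h cosines per regimen, with ZT24 at the phase of ZT0; the 12-h component was added to them. Tables were made with Python 3.11.15, pandas 2.3.3 and numpy 2.4.6, and the fits were tested on simulated data. The effective library size read from the values was 24.77 to 28.85 M reads; intervals and tests cover these libraries only. In 1 NRF ZT24 column the number matches none of the group's sample titles, so it was used with its group but without a replicate number. Alternatives were median-of-ratios scaling, the deposited values divided by the gene mean, a pseudocount of 0.1, no filter or a mean of at least 5 TPM, limma-voom, each replicate number left out, a replicate block and ZT24 left out of the cosine. Scaling by the authors' effective library size, NRF ZT8 without replicate 3 and ZT8 left out were chosen after seeing the data.

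The members, gene lists and motifs were chosen with earlier results of these data known. Named were the catalytic subunits, Psmd14, Psmd4, Psmd11, Psmc3ip, all Psme genes, Psmf1, up to 3 members per role with the smallest adjusted p, and called members that moved against most others. The lists were the immunoproteasome, other proteasome parts, regulators and shuttles, ubiquitin genes and markers of other cell types. Some genes of these lists are not reported here. Same-time and matched comparisons share libraries.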

Additional observations from a re-analysis of the deposited data

Results flagged for a closer look

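The 24-h rhythm differed between DRF and NRF for 29 members by the interaction test described above (limma, adjusted p under 0.05), led by Psmf1, Psmc4 and Psmd6.

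Within groups of 4 mice, the gap between 1 mouse and the nearest of the others passed Dixon's 95% limit in 23 of 490 groups tested, and chance alone flags about 1 in 20. For core genes these were Psmb6 at DRF ZT20 (130 TPM in replicate 4, the others 137 to 138), Psma2 at NRF ZT16 (71.3 in replicate 2, the others 66.1 to 66.6), Psma4 at NRF ZT12 (195 in replicate 1, the others 177 to 179) and Psmb3 at DRF ZT4 (115 in replicate 2, the others 121 to 122). For 19S genes they were Psmd4 at NRF ZT12 (90.2 in replicate 1), Psmd11 at NRF ZT0 (45.9 in replicate 3) and NRF ZT12 (41.2 in replicate 1), Psmd3 at DRF ZT8 (128 in replicate 1) and DRF ZT24 (95.6 in replicate 1), Psmc4 at DRF ZT12 (130 in replicate 3) and Psmc3 at DRF ZT8 (154 in replicate 3) and DRF ZT20 (154 in replicate 3).

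Activator genes stood apart for Psme1 at DRF ZT20 (65.2 TPM in replicate 2), DRF ZT24 (74.7 in replicate 4) and NRF ZT0 (79.4 in replicate 2), each below its group, and for Psme2 at NRF ZT12 (93.8 in replicate 1). Chaperones did so for Psmd9 at NRF ZT20 (12.6 TPM in replicate 1), Psmg1 at NRF ZT8 (39.6 in replicate 1) and Psmg3 at DRF ZT16 (5.91 in replicate 1) and DRF ZT20 (6.43 in replicate 1). Summed levels did so for the 19S subunits at NRF ZT0 (1607 TPM in replicate 3, the others 1687 to 1692), the beta subunits at DRF ZT20 (910 in replicate 3, the others 867 to 874) and all proteasome genes at NRF ZT8 (3885 in replicate 2, the others 4006 to 4030). NRF ZT12 replicate 1 was high for 4 of these genes, Psmd4, Psmd11, Psma4 and Psme2.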

How the results depend on the processing

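Counts of members called kept within 1.5 times of the reported value for the rhythm under NRF (19, range 13 to 24 over the alternatives), the rhythm under DRF (33, range 23 to 36) and the difference in rhythm (29, range 21 to 32), and 22, 9 and 16 of these members in DRF, NRF and the difference were called under every alternative run. Comparisons of single times were less stable. With median-of-ratios scaling, effective library size and the deposited values divided by the gene mean, in this order, the counts were 10, 10 and 10 at ZT0/24 (23 reported), 13, 13 and 12 at ZT20 (7) and 1, 0 and 0 at ZT16 (2). The first 2 of these gave 33 and 32 at ZT4 (18), the second 19 at ZT12 (11), and the last 2 gave 6 and 5 for DRF ZT4 against NRF ZT16 (11). In 3 comparisons the direction of most calls turned: DRF ZT12 against NRF ZT0/24 (4, 4 and 5 calls), DRF ZT16 against NRF ZT4 (8, 9 and 10) and the mesor (7 and 7 with the first 2, and 7 with limma-voom, of which 4 were higher). The deposited values gave 5 for DRF ZT16 against ZT4 (24) and turned Psmb2 to 0.0018 in DRF ZT16 against NRF ZT4. With limma-voom the counts were 14 at ZT0/24, 4 at ZT16, 12 at ZT20, 3 for DRF ZT16 against NRF ZT4 and 7 for the 12-h component under DRF (11); with ZT8 left out the mesor gave 2 and that component 2. The cause was not tested. Leaving out each replicate number in turn gave 11 to 22 calls at ZT0/24, 9 to 18 at ZT4, 3 to 8 at ZT8 (turned without replicate 2, where 3 of 7 were higher), 1 to 10 at ZT12, 0 to 4 at ZT16 and 3 to 6 at ZT20. In the matched comparisons it gave 2 to 10 for DRF ZT4, 2 to 4 for DRF ZT12, 2 to 5 for DRF ZT16, 4 to 8 for DRF ZT20 and 1 to 3 for DRF ZT0/24. It gave 2 to 6 for the mesor, 3 to 14 for NRF ZT16 against ZT4 (turned without replicate 2, 3 or 4: 3, 3 and 4 calls), 11 to 22 for DRF ZT16 against ZT4 and 1 to 5 for the 12-h component under DRF. Of 3211 repeats of single calls 2599 stayed past the threshold, 611 did not and 1 turned.

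Samples of different groups share only a replicate number: over 351 pairs of same-numbered samples the median correlation of deviations was -0.003 (range -0.77 to 0.74). With the replicate block the counts were 17 for the NRF rhythm, 33 for the DRF rhythm, 29 for the difference, 18 at ZT4 and 20 at ZT0/24, and no count moved by over 1.5 times. Depth was similar in all libraries and limits the rare Psme2b most, at a median of 18.9 reads.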
